A study of Mus musculus with 6 samples.

Results

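The transcripts described are those of 7 long non-coding RNA genes known from brain: 1700020I14Rik, Malat1, Neat1, Miat, Snhg11, C130071C03Rik and 2810008D09Rik. Each gene was found by its symbol among the transcript rows. Its representative transcript was chosen by the highest mean raw count over the 6 libraries. Of the 7 genes, 6 had rows, with 20 transcripts in all among 76938 transcripts of 25896 gene symbols, and Miat was not analysed here. All 6 passed the filter on low counts, which left 17405 genes to test. The genes were selected on counts of these libraries, with the comparison of the genotypes already known, so their differences between genotypes are a description and support nothing by themselves. Of the 6, 5 matched long intergenic non-coding models of GENCODE M21, whereas the Snhg11 transcript matched a model of the protein-coding type, so that its label as non-coding rests on the name.

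Hippocampal RNA came from 2 groups of male C57BL/6 mice aged 3 months, and each group had 3 libraries. DICER1-ifKO mice were Dicer1 flox/flox and carried CaMKIIa-creERT2, a tamoxifen-activated Cre recombinase under a promoter of forebrain excitatory neurons. WT mice were also Dicer1 flox/flox but had no Cre, so the loss of Dicer1 and effects of the recombinase or its transgene cannot be told apart. Mice of both groups received tamoxifen, were killed 3 weeks after it, and were pooled in equal amounts of RNA, 3 mice to a library. The libraries were made with a stranded mRNA kit, which selects polyadenylated RNA. The comparison asks which hippocampal transcripts differ after Dicer1 is removed from adult forebrain neurons. Cells in which the promoter is not active, such as glia, keep the gene and contribute to the same libraries.

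Long non-coding RNAs are transcribed, and many are spliced, like messenger RNAs, but they are not known to be translated. Some act in the nucleus, where Malat1 collects in the splicing factor domains called nuclear speckles and Neat1 is the scaffold of paraspeckles. Others meet microRNAs in the cytoplasm: 1700020I14Rik, which RefSeq names Oip5os1 and lists under the synonym Cyrano, is known for a site that pairs with miR-7 and leads to the destruction of that microRNA. Others again are the primary transcripts from which small RNAs are cut, as C130071C03Rik is for miR-9. Dicer1 encodes the ribonuclease that makes the last cut from a microRNA hairpin to its mature strands, after Drosha has cut the hairpin out of the primary transcript.

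Counts of representative transcripts summed to 15409076 to 20677846 in DICER1-ifKO libraries and 11832791 to 16125477 in WT libraries, WT replicate 1 being the shallowest. Dicer1 itself averaged 59.7 ± 2.82 CPM (counts scaled to library size) in DICER1-ifKO and 57.8 ± 3.63 CPM in WT (SD, n = 3 each), and its row spans the whole gene, so it does not check the deletion. Esr1, whose sequence is partly shared with the recombinase, averaged 11.9 ± 1.76 CPM in DICER1-ifKO and 4.01 ± 0.762 CPM in WT. Markers of neurons and glia were present in every library. The summed level of 8 excitatory neuron markers was 5352 to 5690 CPM in DICER1-ifKO and 5191 to 5343 CPM in WT, but without Camk2a, the most abundant, the sums overlapped, at 1855 to 1978 CPM in DICER1-ifKO and 1872 to 2006 CPM in WT. Likewise 8 astrocyte markers summed to 3631 to 3783 CPM in DICER1-ifKO and 3411 to 3596 CPM in WT. Without Slc1a2 the sums overlapped, at 1553 to 1581 CPM in DICER1-ifKO and 1566 to 1612 CPM in WT. Slc1a2 and Fgfr3 were higher, and Aqp4 lower, in every DICER1-ifKO library than in every WT library. Of 6 dentate granule cell markers, summing to 295 to 323 CPM in DICER1-ifKO and 331 to 348 CPM in WT, Calb1 was called as lower (log2 fold change -0.27, SE 0.05). Without Calb1 the sums overlapped, at 192 to 213 CPM in DICER1-ifKO and 199 to 221 CPM in WT. The sum of 8 microglia markers was 415 to 419 CPM in DICER1-ifKO and 423 to 448 CPM in WT, and without Cx3cr1 275 to 279 CPM in DICER1-ifKO and 277 to 309 CPM in WT. Their part in the results was not tested, and in bulk tissue fewer cells of a type and less RNA per cell cannot be told apart.

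Of the 6 RNAs, 1700020I14Rik was the one called as different. A call is a Benjamini-Hochberg adjusted p below 0.05 over all tested genes in the quasi-likelihood test of edgeR. Across all 17405 genes 0.161% were called in either direction, 0.126% as higher in DICER1-ifKO. The other 5 RNAs had log2 fold changes between 0.01 and 0.22 and were not called. In 1700020I14Rik and C130071C03Rik every DICER1-ifKO library lay above every WT library, which held for 7.99% of all tested genes. The reverse, every DICER1-ifKO library below every WT library, held for none of the 6 and for 8.07% of all tested genes. All 6 log2 fold changes were positive, as were those of 49% of all tested genes, and their median was 0.12 against 0.00 over all tested genes. Since the choice of the 6 used this contrast, nothing is read from these shares.

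**Figure D1:**
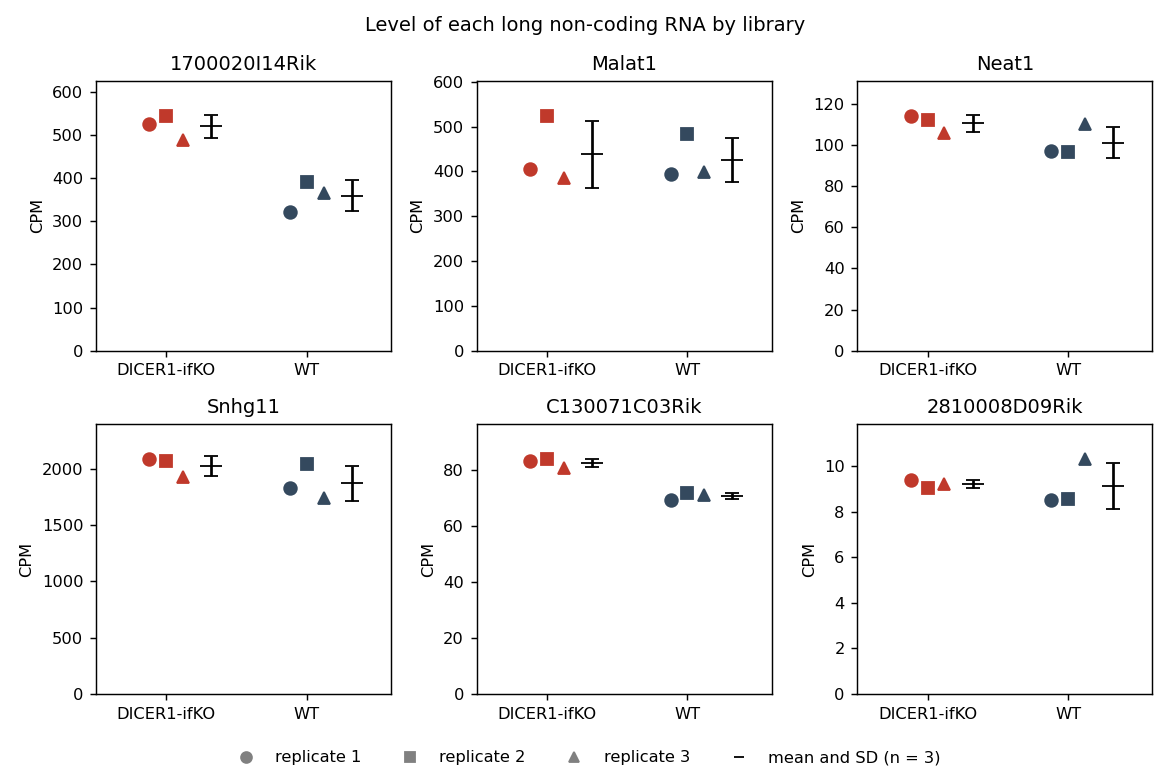
Level of each long non-coding RNA (CPM) in the 3 DICER1-ifKO libraries (left) and the 3 WT libraries (right), with the marker shape giving the replicate number and the bars the mean and SD. The genotypes do not overlap for 1700020I14Rik, at 489 to 543 CPM in DICER1-ifKO and 321 to 391 CPM in WT, or for C130071C03Rik, and they overlap for the other 4.

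1700020I14Rik lies on chromosome 2 (119594303 to 119607502, plus strand, GRCm38), and its long transcript, 1700020I14Rik-001, has 3 exons with 8300 nt. It had 526, 543 and 489 CPM in DICER1-ifKO replicates 1, 2 and 3, against 321, 391 and 366 CPM in WT replicates 1, 2 and 3. The lowest DICER1-ifKO library thus stood well above the highest WT library, and WT replicate 1 was the lowest of all. The means were 520 ± 27.8 CPM in DICER1-ifKO and 359 ± 35.4 CPM in WT (SD, n = 3 each), 44.5% higher in DICER1-ifKO, with a log2 fold change of 0.53 (SE 0.06). These values rest on 8108 to 10015 counts per DICER1-ifKO library and 3772 to 6211 per WT library, so counting error is small beside the spread between libraries. The gene was called in each of the 14 fits tried, with log2 fold changes of 0.43 to 0.60. The lowest came from a fit with a correction for transcript length and GC content that also left out WT replicate 1.

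The miR-7 pairing for which Cyrano is known can be read from its sequence and is shown because 1700020I14Rik carried the one called difference. Both mouse forms of the microRNA share the seed, bases 2 to 8, given here in capitals as listed by RefSeq (GRCm38.p6).
miR-7a-5p: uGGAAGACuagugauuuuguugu
miR-7b-5p: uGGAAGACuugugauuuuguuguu
The 7-base match to this seed, GTCTTCC, was searched on the sense strand of the transcript and occurred 2 times in 1700020I14Rik-001. The stretches of 30 nt that end 1 base past each match are given 5′ to 3′, with capitals for the seed match and for a run of at least 5 bases that pairs without a gap with the 3′ part of miR-7a-5p.
chr2:119602132-119602161: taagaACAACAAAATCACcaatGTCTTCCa
chr2:119599942-119599971: gacttcaggttttttttttaatGTCTTCCa
The first of these covers transcript positions 2930 to 2959 and pairs with bases 11 to 23 of miR-7a-5p over 13 nt beside the seed, whereas the longest such run at the other, positions 740 to 769, was 3 nt.

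Such pairing was rare among the transcripts measured. Of 15847 tested genes with a transcript sequence, 3832 held 4817 matches to the miR-7 seed, and the median run beside a match was 4 nt. A run of 13 nt occurred at 1 match, the one in 1700020I14Rik, and the longest in any other gene was 10 nt. A seed match alone is common: 50% of 864 transcripts within 20% of the length of 1700020I14Rik-001 held one. Among the other long non-coding RNAs, Snhg11 had 2 matches, the longer run being 7 nt, and Neat1 had 1 with a run of 2 nt. No match to these letters was found in the sequences of Malat1, C130071C03Rik and 2810008D09Rik. A match is a description of the sequence, and miR-7 was not measured in these libraries.

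1700020I14Rik-002, the other transcript of the gene, covers the first exon, part of the second and the start of the third, and ends at 119600746, before the longer pairing. Its exons took 9.85%, 9.51% and 8.49% of the counts of the long transcript in DICER1-ifKO replicates 1, 2 and 3, and 6.42%, 9.77% and 9.1% in WT replicates 1, 2 and 3. Apart from the low share of WT replicate 1, the genotypes overlapped. Counts of the long transcript less those of the short one, which cover the part that holds the longer pairing, averaged 471 ± 22.2 CPM in DICER1-ifKO and 329 ± 26.3 CPM in WT (SD, n = 3 each), a log2 ratio of 0.52, or 0.46 without WT replicate 1. In the test of all 60500 transcripts, of which 0.0777% were called in either direction and 0.0595% as higher in DICER1-ifKO, the long transcript was called and 1700020I14Rik-002 was not (log2 fold change 0.62, SE 0.12). Every DICER1-ifKO library was above every WT library for both of them.

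The other tested genes of a list drawn up around Cyrano and miR-7 were not called. The list held 8 symbols, with the neighbouring gene Oip5 and Nusap1 among them and Argonaute 2 under both its older and newer symbol. Of these, 6 were tested, 1700020I14Rik among them, and 4 of the 6 had positive log2 fold changes. Zswim8 and the newer symbol of Argonaute 2 had no rows under these names, so Zswim8 was not looked at here. An unadjusted p under 0.05 was found for 4, 1700020I14Rik and Oip5 included, and DESeq2 called 1, which was 1700020I14Rik. Over all tested genes 10.4% had an unadjusted p under 0.05, 5.63% as higher in DICER1-ifKO, and DESeq2 called 0.46%. Eif2c2, the older symbol of Argonaute 2, the effector that binds mature microRNAs, had 79, 80.2 and 85.3 CPM in DICER1-ifKO replicates and 66.1, 73.3 and 77.3 CPM in WT replicates, without overlap (log2 fold change 0.17, SE 0.06). C230004F18Rik, which RefSeq names Cdr1os, averaged 32.3 ± 3.3 CPM in DICER1-ifKO and 28.2 ± 2.79 CPM in WT (0.19, SE 0.08), with overlapping libraries. Hnrnpk, an RNA-binding protein, had a log2 fold change of -0.02 (SE 0.04). On the genome, 1700020I14Rik is 2010 nt from Oip5, a gene of a centromere protein on the opposite strand. Oip5 was scarce, at 1.9 ± 0.596 CPM in DICER1-ifKO and 1.11 ± 0.519 CPM in WT, and its log2 fold change of 0.87 (SE 0.31) came with overlapping libraries and no call. On the other side, 1500003O03Rik, 7270 nt away, had 0.08 (SE 0.05).

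Malat1 lies on chromosome 19 (5795690 to 5802671, minus strand) as a single exon of 6982 nt. It had 406, 523 and 385 CPM in DICER1-ifKO replicates 1, 2 and 3 and 395, 483 and 399 CPM in WT replicates 1, 2 and 3. Replicate 2 was the highest in both genotypes, and the other 2 libraries of each lay within 385 to 406 CPM. The means of 438 ± 74.2 CPM in DICER1-ifKO and 426 ± 49.5 CPM in WT (SD, n = 3 each) gave a log2 fold change of 0.04 (SE 0.08). The direction rests on single libraries: without DICER1-ifKO replicate 2 the log2 fold change was -0.11, and without WT replicate 2 it was 0.14. Its coefficient of variation was 16.9% in DICER1-ifKO and 11.6% in WT, the largest of the 6 RNAs in each genotype.

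The other 4 Malat1 transcripts, short spliced pieces at either end of the gene, had log2 fold changes of 0.03 to 0.15 and were not called. Gm20417, a predicted gene on the opposite strand inside Malat1, had 596, 934 and 726 counts in DICER1-ifKO replicates and 399, 712 and 631 in WT replicates. It was also highest in replicate 2 of each genotype, and since the strand setting of the counting is not given, its reads cannot be told apart from those of Malat1. Among 18 genes of nuclear speckle and Malat1-associated proteins, edgeR called 0, while DESeq2 called 1 (0.46% of all tested genes) and 3 had an unadjusted p under 0.05 (10.4% of all tested genes). Their log2 fold changes were positive in 10 and had a median of 0.01. Srrm2, a scaffold protein of speckles, had 844, 843 and 798 CPM in DICER1-ifKO replicates and 631, 778 and 727 CPM in WT replicates (log2 fold change 0.22, SE 0.06, adjusted p 0.158 in edgeR's quasi-likelihood test). Srsf6 and Srrm1, splicing proteins with arginine and serine repeats, had -0.10 (SE 0.05) and 0.10 (SE 0.05), neither called.

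Neat1 lies 22037 nt from Malat1 on the same chromosome and strand (5824708 to 5845478) and is known in a short polyadenylated form and a long form that share their 5′ end. The long form, 20771 nt in 1 exon, had 114, 112 and 106 CPM in DICER1-ifKO replicates 1, 2 and 3 and 97, 96.6 and 110 CPM in WT replicates 1, 2 and 3. WT replicate 3 lay among the DICER1-ifKO libraries, so the genotypes overlapped. The means were 110 ± 4.51 CPM in DICER1-ifKO and 101 ± 7.63 CPM in WT (SD, n = 3 each), a log2 fold change of 0.12 (SE 0.06) that was not called.

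Nearly all of these counts belonged to the 5′ part that the short form also covers. This part, the 3004 nt of Neat1-002, held 98.6% to 99% of the counts of each library. The remaining 17767 nt, present in the long form only, had 24, 21 and 26 counts in DICER1-ifKO replicates 1, 2 and 3 and 11, 19 and 20 in WT replicates 1, 2 and 3. These came to 1.2 ± 0.159% of the Neat1 counts in DICER1-ifKO and 1.11 ± 0.137% in WT (SD, n = 3 each), and the genotypes overlapped. A change of the long form was not detectable from so few counts. The libraries were selected for polyadenylated RNA, so they do not give the level of long-form RNA without a poly(A) tail. The part of this selection in the low counts was not tested. Per kb, the shared part averaged 34.8 ± 2.47 CPM per kb over the 6 libraries. The remaining 17767 nt averaged 0.069 ± 0.0113 CPM per kb, and the ratio of the parts was 504. The values for Neat1 therefore describe its 5′ part.

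The 19 paraspeckle protein genes were not called by edgeR, while DESeq2 called 1 of them, against 0.46% of all tested genes. An unadjusted p under 0.05 was found for 2, near the 10.4% of all tested genes. Log2 fold changes were positive in 7 of the 19, with a median of -0.02. Smarca4, the ATPase of a chromatin remodelling complex, had 163, 163 and 169 CPM in DICER1-ifKO replicates and 137, 148 and 151 CPM in WT replicates (log2 fold change 0.18, SE 0.05, adjusted p 0.16 in edgeR's quasi-likelihood test). Nono, one of the core paraspeckle proteins, had 121, 120 and 123 CPM in DICER1-ifKO and 131, 129 and 131 CPM in WT (-0.10, SE 0.05, not called). Sfpq, its usual partner, had 0.06 (SE 0.05). Gm9783, a predicted gene 3030 nt from Neat1, had a log2 fold change of -0.05 (SE 0.25).

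Snhg11 was the most abundant of the 6 RNAs and ranked 20 among all tested genes by mean CPM. It lies on chromosome 2 (158375638 to 158386145, plus strand) with 5 exons of 5864 nt, and 2 annotated small nucleolar RNA genes, Gm25187 and Gm25129, lie in its introns. Its levels were 2085, 2074 and 1928 CPM in DICER1-ifKO replicates 1, 2 and 3 and 1832, 2044 and 1742 CPM in WT replicates 1, 2 and 3. WT replicate 2 lay among the DICER1-ifKO libraries. The means were 2029 ± 87.8 CPM in DICER1-ifKO and 1872 ± 155 CPM in WT (SD, n = 3 each), a log2 fold change of 0.12 (SE 0.05) without a call.

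The 4 shorter Snhg11 transcripts, which start near the same 5′ end, had log2 fold changes of 0.24 to 0.29 (SE 0.06 each), and none was called. The long transcript, Snhg11-001, had 0.10 (SE 0.05) in the same fit of all transcripts, and the difference was not tested. In each of the 4, every DICER1-ifKO library was higher than every WT library, which held for 7.58% of all tested transcripts. Reads in shared exons count for each of these transcripts, so they are not separate measurements. Relative to the counts of the long transcript, those of Snhg11-002 were 12.4%, 12.9% and 12.7% in DICER1-ifKO replicates 1, 2 and 3. They were 10.7%, 11.8% and 11.9% in WT replicates 1, 2 and 3. Some of the 1329 nt of Snhg11-002 lie outside the exons of the long transcript, so this percentage is not strictly a share of its reads. The genotypes did not overlap in this percentage, with WT replicate 1 lowest. Ralgapb, the next tested gene, 23703 nt away, had a log2 fold change of 0.10 (SE 0.05).

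C130071C03Rik is the primary transcript of miR-9-2 and lies on chromosome 13 (83721555 to 83741308, plus strand), 54476 nt beyond Mef2c, a transcription factor gene of neurons. It had 83.2, 83.9 and 81 CPM in DICER1-ifKO replicates 1, 2 and 3 and 69.5, 71.9 and 71.1 CPM in WT replicates 1, 2 and 3. Libraries of each genotype lay close together, and every DICER1-ifKO library was above every WT library. The means were 82.7 ± 1.49 CPM in DICER1-ifKO and 70.9 ± 1.21 CPM in WT (SD, n = 3 each), 16.6% higher in DICER1-ifKO, with a log2 fold change of 0.22 (SE 0.05). edgeR did not call it, whereas 3 of the 13 other fits did: DESeq2's Wald test, edgeR without a filter on low counts, and edgeR with a length and GC correction, at 0.22 to 0.23. Mef2c had a log2 fold change of 0.08 (SE 0.07) and Tmem161b, the next gene on the other side, -0.03 (SE 0.07).

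The miR-9-2 hairpin lies inside the last exon of the transcript (83738170 to 83741308), with 644 nt of the exon before it and 2423 nt after it. It is given in full as RefSeq lists it, because it divides the transcript into the parts measured, with capitals for the mature strands.
Mir9-2 hairpin: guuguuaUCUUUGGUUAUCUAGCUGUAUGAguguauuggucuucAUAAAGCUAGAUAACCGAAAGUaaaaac
The mature strands are given with their seeds in capitals.
miR-9-5p: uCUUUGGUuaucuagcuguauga
miR-9-3p: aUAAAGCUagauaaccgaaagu
The 2 seeds differ from each other and from that of miR-7. The other deposited transcript of the gene, C130071C03Rik-201, starts at 83738881 and overlaps the last 5 nt of the hairpin, so its counts separate the part downstream of the hairpin from the part upstream of it.

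The part upstream of the hairpin, with the hairpin, took 18%, 17.5% and 18.4% of the counts in DICER1-ifKO replicates 1, 2 and 3 and 13.1%, 17% and 16% in WT replicates 1, 2 and 3. The genotypes did not overlap, though DICER1-ifKO replicate 2 and WT replicate 2 were close. Its level was 14.9 ± 0.146 CPM in DICER1-ifKO and 10.9 ± 1.61 CPM in WT (SD, n = 3 each), a log2 ratio of 0.45, or 0.33 without WT replicate 1. Downstream of the hairpin the level was 67.8 ± 1.56 CPM in DICER1-ifKO and 60 ± 0.415 CPM in WT, a log2 ratio of 0.18 with or without WT replicate 1. Per kb, the downstream part averaged 2.02 times the upstream part over the 6 libraries.

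**Figure D2:**
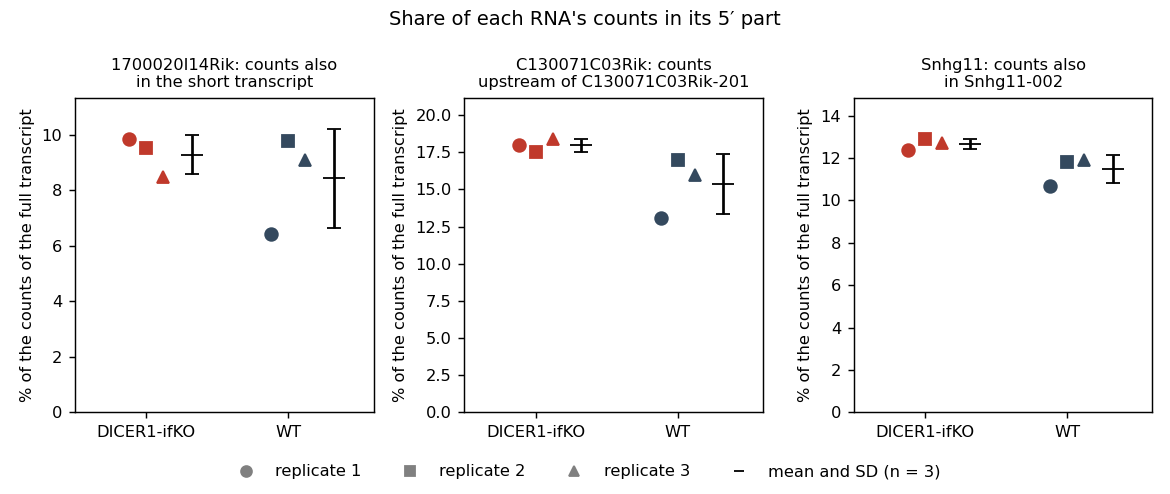
Share of the counts of each long transcript that fell in its 5′ part, in percent, for the 3 DICER1-ifKO libraries (left) and the 3 WT libraries (right) of 1700020I14Rik, C130071C03Rik and Snhg11, with bars for the mean and SD. WT replicate 1 has the lowest share for each of the 3 RNAs, at 6.42%, 13.1% and 10.7%.

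WT replicate 1 had the lowest 5′ share for 1700020I14Rik, C130071C03Rik and Snhg11, whereas for Neat1 its share of 99% was not the lowest. The same library differed along transcript length across the whole table: over 14086 genes, the deviations of its log2 levels from the mean of the 6 libraries had a Spearman correlation of -0.317 with transcript length. The correlations were 0.148, 0.183 and 0.095 in DICER1-ifKO replicates 1, 2 and 3, and 0.097 and -0.136 in WT replicates 2 and 3. Genes are not independent replicates, and these values are a description of the libraries. The part of this trend in the differences of the long RNAs was not tested beyond the fits with a length and GC correction, in which 1700020I14Rik had 0.48, C130071C03Rik 0.23, Snhg11 0.08, Neat1 0.06 and Malat1 -0.0037.

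2810008D09Rik, which RefSeq and GENCODE M21 name Snhg20, was the least abundant of the 6 in CPM. It lies on chromosome 11 (117076790 to 117078955, plus strand), and the nearest M21 model has 3 exons of 1088 nt. It had 145, 163 and 189 counts in DICER1-ifKO replicates 1, 2 and 3, or 9.41, 9.05 and 9.23 CPM, and 100, 136 and 168 counts in WT replicates 1, 2 and 3, or 8.51, 8.56 and 10.3 CPM. WT libraries lay on both sides of the DICER1-ifKO libraries. The means were 9.23 ± 0.183 CPM in DICER1-ifKO and 9.13 ± 1.04 CPM in WT (SD, n = 3 each), with a log2 fold change of 0.01 (SE 0.11) whose sign changed in 4 of the other fits.

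An intron of 2810008D09Rik-001 holds Mir6516 (117077348 to 117077457) and the small Cajal body RNA gene Gm26083. In this transcript the placement differs from that of miR-9-2, which is exonic in C130071C03Rik-001. The 2 mature strands of miR-6516 are therefore shown, with their seeds in capitals.
miR-6516-5p: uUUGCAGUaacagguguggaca
miR-6516-3p: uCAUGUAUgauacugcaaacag
The other transcript, 2810008D09Rik-002, ends at the last base of the Mir6516 gene and covers it in its last exon. Its counts summed to 239 in DICER1-ifKO and 185 in WT, with a log2 fold change of 0.06 (SE 0.16). The neighbours Gm11728 and Sec14l1 had 0.43 (SE 0.26) and 0.06 (SE 0.05), neither called.

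Levels of the 6 RNAs can be compared with each other only per length, and only for RNA that the selection of polyadenylated RNA retained. How far that selection retained each of the 6 was not tested. Over the 6 libraries Snhg11 averaged 333 ± 24.2 CPM per kb of exon (SD), Malat1 61.9 ± 8.14, 1700020I14Rik 52.9 ± 11.1, C130071C03Rik 22.5 ± 1.93, 2810008D09Rik 8.44 ± 0.614 and Neat1 5.1 ± 0.364 CPM per kb. Neighbours in this order did not overlap between any of the 6 libraries, except Malat1, at 55.2 to 74.9 CPM per kb, and 1700020I14Rik, at 38.7 to 65.5 CPM per kb. Within WT these 2 were apart, Malat1 at 56.6 to 69.1 and 1700020I14Rik at 38.7 to 47.1 CPM per kb, whereas within DICER1-ifKO they overlapped, Malat1 at 55.2 to 74.9 and 1700020I14Rik at 58.9 to 65.5 CPM per kb. Among 15847 tested genes with a length, Snhg11 stood above 99.4%, Malat1 above 92.9%, 1700020I14Rik above 91.4%, C130071C03Rik above 77.9%, 2810008D09Rik above 51.9% and Neat1 above 39.6%. The place of Neat1 depends on the length used: over the 3004 nt of its short form it averaged 34.8 CPM per kb, between 1700020I14Rik and C130071C03Rik.

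**Figure D3:**
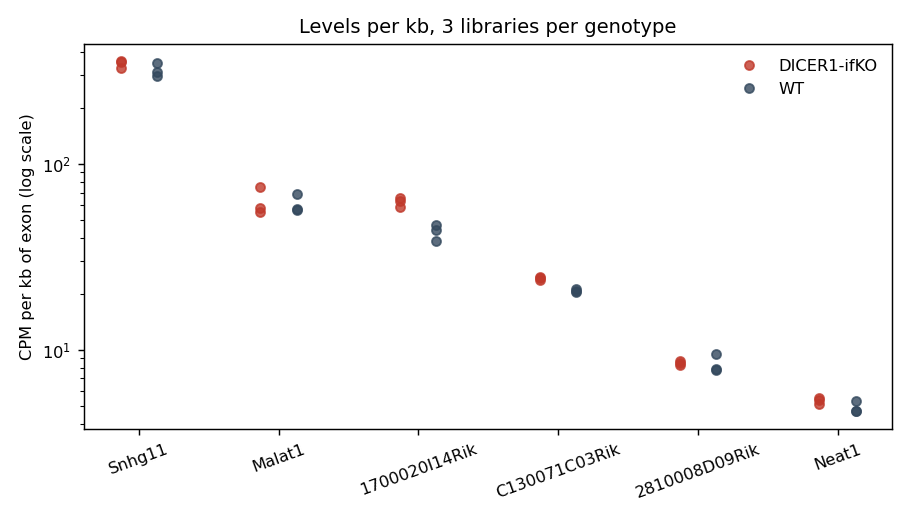
Level of each RNA per kb of exon (CPM per kb, log scale), with the 3 DICER1-ifKO libraries left of the 3 WT libraries for each RNA. Snhg11 lies at 297 to 356 CPM per kb, above the other 5, and Malat1 and 1700020I14Rik overlap.

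In CPM, 1700020I14Rik stood above 98.7% of all tested genes and 2810008D09Rik above 34%. The fold changes of all tested genes spread more widely toward low levels, as the plot of fold change by level shows.

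**Figure D4:**
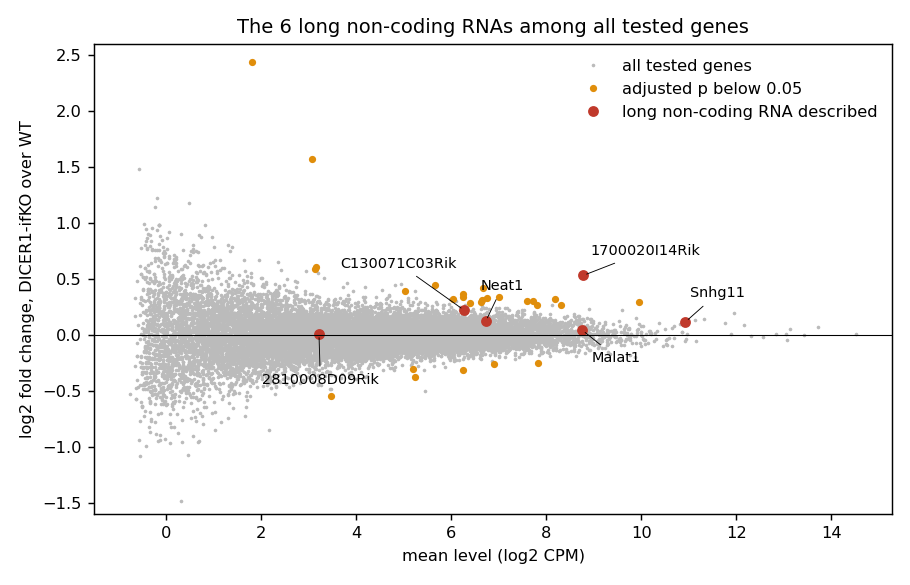
Log2 fold change of DICER1-ifKO over WT against the mean level (log2 CPM) for the 17405 tested genes (grey), the genes called by edgeR (orange, adjusted p below 0.05) and the 6 long non-coding RNAs (red). 1700020I14Rik lies at 0.53 and the other 5 between 0.01 and 0.22.

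Other genes followed the same pattern over the 6 libraries. Among 15470 tested genes whose mean level was at least 1 log2 CPM, Pearson's r of log2 CPM with 1700020I14Rik was highest for Fbrsl1 (0.9969) and Yipf6 (0.9962), apart from predicted models, and 375 genes were over 0.9. For Malat1 the most alike were Ccl27a (0.9778) and Hs3st1 (0.9771), with 128 genes over 0.9, and for Neat1 Wipi1 (0.9844) and Tfpi (0.9840), with 138. Snhg11 was most like Acad9 (0.9952) and Thrb (0.9929), with 152 genes over 0.9. C130071C03Rik was most like Eef2k (0.9982) and Tab2 (0.9966), with 282, and 2810008D09Rik most like Dvl2 (0.9873) and Armc6 (0.9848), with 77. None of these genes was called. With 6 points that share 2 genotypes and the same libraries, such values are a description only.

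Other long non-coding RNAs of brain were listed for comparison. Of 26, 10 had rows and 8 were tested, of which edgeR and DESeq2 each called 0, and 3 had an unadjusted p under 0.05, all higher in DICER1-ifKO (5.63% of all tested genes). Their log2 fold changes were positive in 7 of 8, with a median of 0.12. Meg3, an imprinted RNA of neurons, had 4236, 4280 and 4050 CPM in DICER1-ifKO replicates and 3366, 4115 and 3519 CPM in WT replicates, so that WT replicate 2 lay among the DICER1-ifKO values; its log2 fold change was 0.19 (SE 0.06). 2900097C17Rik had 0.22 (SE 0.10), Tug1 0.07 (SE 0.05) and Sox2ot, which overlaps the Sox2 gene, -0.01 (SE 0.07). Of 19 small nucleolar RNA host genes, 4 were tested, 2810008D09Rik among them, and edgeR and DESeq2 each called 0, with 0 at an unadjusted p under 0.05. Gas5 had 0.06 (SE 0.07), Snhg12 -0.07 (SE 0.09) and Snhg3 -0.01 (SE 0.17).

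Miat itself was not analysed here, but the 4 splicing factor genes whose proteins it is known to bind were tested. edgeR and DESeq2 each called 0 of them, and 2 had an unadjusted p under 0.05, against 10.4% of all tested genes. Celf3, a splicing regulator of neurons, had 197, 198 and 205 CPM in DICER1-ifKO replicates and 184, 184 and 186 CPM in WT replicates, without overlap (log2 fold change 0.12, SE 0.04). Qk, a splicing regulator of glia, had 0.12 (SE 0.06), Sf1 0.08 (SE 0.05) and Srsf1 -0.01 (SE 0.05).

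Over all long non-coding genes of GENCODE M21, a class chosen after the values had been seen, 1424 were tested, edgeR called 2 as higher in DICER1-ifKO, 1700020I14Rik included, and 0 as lower, and DESeq2 called 2. Over all tested genes 0.126% were called as higher by edgeR and 0.46% in either direction by DESeq2, so these counts are not a result about the class. Log2 fold changes were positive in 55.5% of them, against 48.5% of 14040 protein-coding genes. Among genes of at least 3 kb and 1 log2 CPM the shares were 60.6% of 104 long non-coding genes, with a median of 0.04, and 59.6% of 6256 protein-coding genes, with a median of 0.02.

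**Figure D5:**
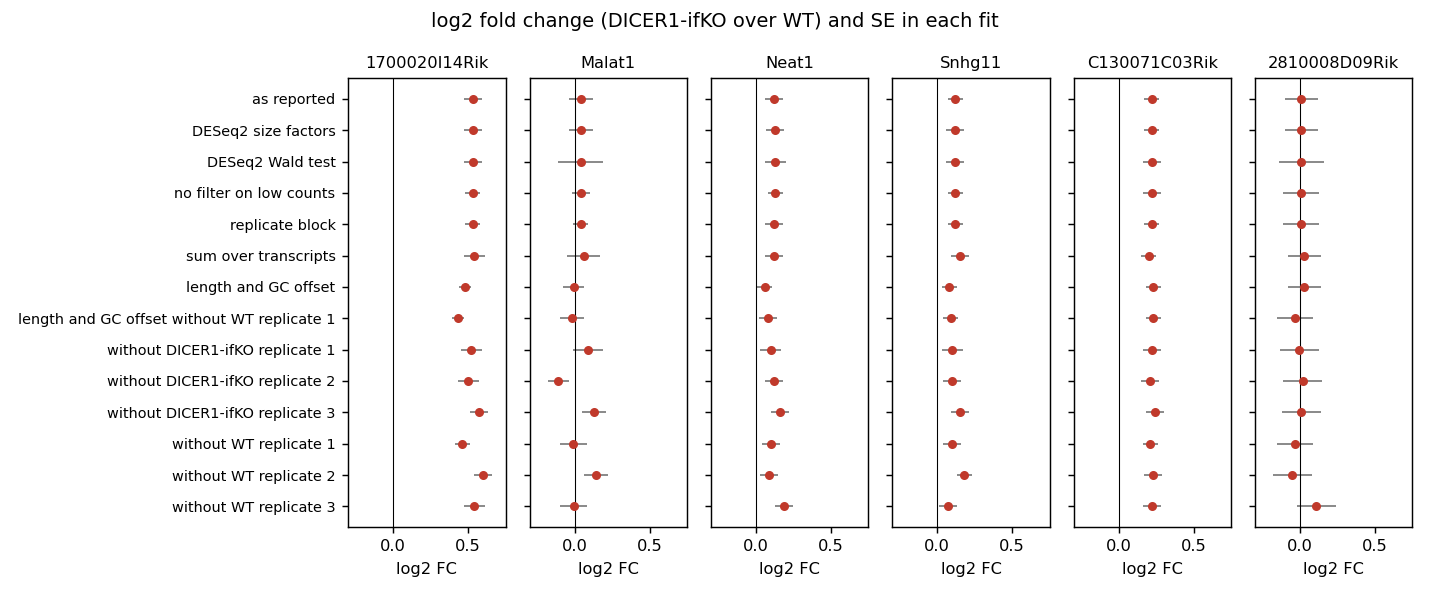
Log2 fold change of DICER1-ifKO over WT with its SE (bars) for each RNA in the fit reported and 13 alternatives. 1700020I14Rik stays between 0.43 and 0.60 and C130071C03Rik between 0.20 and 0.24, while Malat1 (-0.11 to 0.14) and 2810008D09Rik (-0.05 to 0.11) lie on both sides of 0.

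Over the 14 fits, the log2 fold change was 0.20 to 0.24 for C130071C03Rik, 0.06 to 0.19 for Neat1 and 0.07 to 0.18 for Snhg11, positive in each fit for all 3. It was -0.11 to 0.14 for Malat1 and -0.05 to 0.11 for 2810008D09Rik, so for these 2 no direction can be given.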

How the data were processed

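Polyadenylated RNA was sequenced from 3 DICER1-ifKO and 3 WT hippocampal libraries. The submitters' processing notes name TopHat2 (2.0.6) with Bowtie2 (2.0.5), DESeq2, CASAVA (1.8.2) and SAMtools (0.1.18), and the builds GRCm38 and mm10. Which program counted reads, on which annotation and with which strand setting, is not given in the sources used here. Each of 76938 transcripts has 2 deposited values, named in the file headers as raw and normalised counts. Reads in shared exons counted for each transcript that holds them. The normalised values (unit signal), which the authors made by dividing each deposited count by 1 factor per library, were not tested.

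Genes were represented as stated in the report and tested on their counts with the quasi-likelihood F-test of edgeR (4.0.16, R 4.3.3). TMM scaling was used, filterByExpr required a count of 10, the model held genotype alone, and calls needed an adjusted p below 0.05 (Benjamini-Hochberg, 17405 genes). SE was taken from the log2 fold change and its F statistic. CPM are counts of representative transcripts scaled to library size after TMM. Counts of part of a transcript are those of a shorter transcript, or the difference between the longer and the shorter. 1700020I14Rik-002 and Snhg11-002 hold some bases outside the exons of the longer transcript, so their nesting is not complete. Of all deposited transcripts, 84.2% had coordinates identical to GENCODE M21 (GRCm38), which gave exons, lengths and transcript sequences; those of Malat1, C130071C03Rik and 2810008D09Rik were matched within 200 nt. MicroRNA sequences are from RefSeq (GRCm38.p6). Chi-square over degrees of freedom was 1.75 to 4.36 between libraries of 1 genotype, so each library counted as 1 replicate. The edgeR step was tested on simulated data.

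The members and lists were chosen with earlier results of these data known. Genes named beside them are the 2 most alike by Pearson's r (predicted models left out), the nearest tested neighbours, overlapping genes, up to 3 genes of smallest p per list with a few further list members chosen after their values were seen, and Dicer1 and Esr1; 1 neighbour is not reported here. Alternatives were DESeq2 1.42.0 (Wald test, or size factors in edgeR), no filter on low counts, a sum over transcripts, a length and GC offset, a replicate block and leaving out each library.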

Additional observations from a re-analysis of the deposited data

How the results depend on the processing

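The main test called 28 genes. DESeq2's Wald test called 80, edgeR without a filter on low counts 151, and edgeR on sums over transcripts, which count shared reads repeatedly, 7. Leaving out 1 library gave 6 (without DICER1-ifKO replicate 1) to 105 (without WT replicate 2). Of transcripts, 47 were called, 118 without a filter and 10 to 286 with 1 library left out. Causes were not tested. Deviations of libraries with the same number correlated at -0.066, 0.076 and -0.114, so the numbers did not pair them, and not every library correlated best with its own number. With the replicate block 22 genes and 45 transcripts were called, 1700020I14Rik had 0.53 and no call of the 6 long non-coding RNAs changed.

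1700020I14Rik kept its direction and its call in all 13 alternatives. Neat1 and Snhg11 kept their direction and were not called in any of them. C130071C03Rik kept its direction and was called in 3. Malat1 changed sign with the length and GC offset (-0.0037), with that offset and without WT replicate 1 (-0.02, chosen after seeing the data), and without DICER1-ifKO replicate 2 (-0.11), WT replicate 1 (-0.0074) or WT replicate 3 (-0.0048); single libraries left out gave -0.11 to 0.14. 2810008D09Rik did so with the offset and without WT replicate 1 (-0.03), and without DICER1-ifKO replicate 1 (-0.0054), WT replicate 1 (-0.03) or WT replicate 2 (-0.05); single libraries left out gave -0.05 to 0.11. Its 100 to 189 counts per library limit its precision, as do the 11 to 26 counts of Neat1 outside the exons of Neat1-002.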
